A study of Sus scrofa with 9 samples.

Results

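Fructose and polyol metabolism was followed in pig liver through 4 enzyme transcripts, KHK, TKFC, SORD and AKR1B1, chosen by gene symbol. All 4 were present among the 29837 symbols of the deposited count table, and all 4 passed the low-count filter that left 14100 genes for testing. Livers of 4 female MIDY pigs were compared with those of 5 female wild type (WT) pigs, each 2 years of age. MIDY is the name of diabetes of youth induced by a mutant INS gene. The MIDY pigs are described as C94Y transgenic, INS being the insulin gene. The growth protocol, which is the same text for both genotypes, states that diabetic animals were given short- and long-acting insulin, so genotype and insulin treatment cannot be told apart. The promoter of the transgene, litters and sampling dates were not used here. Each library came from the ribosome-depleted total RNA of 1 liver.

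Fructose taken up by the liver is phosphorylated by ketohexokinase (KHK) to fructose 1-phosphate, which is then split into dihydroxyacetone phosphate and glyceraldehyde. Triokinase (TKFC) phosphorylates that glyceraldehyde, and also dihydroxyacetone, so that all carbons of the sugar enter the triose phosphate pool. In the polyol pathway, aldose reductase (AKR1B1) reduces glucose to sorbitol and sorbitol dehydrogenase (SORD) oxidises sorbitol to fructose. The polyol route is best known for its activity in tissues exposed to high glucose, and the liver is rich in sorbitol dehydrogenase.

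Libraries held 14819335 to 18708976 counts in MIDY and 14115415 to 19533463 in WT. Levels are given as CPM, counts divided by the library size in units of 1e6, scaled by TMM (trimmed mean of M-values). Gene length was not corrected for, so levels are compared between pigs and not between genes. The tissue label was checked with 10 hepatocyte transcripts. ALB, the serum albumin gene, averaged 117614 ± 11786 CPM in MIDY and 106557 ± 20127 CPM in WT (SD, n = 4 and 5).

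On Sscrofa11.1 the RefSeq gene table places KHK on chromosome 3 (112021163 to 112031615), TKFC on chromosome 2 (10158183 to 10171452), SORD on chromosome 1 (126659198 to 126701084) and AKR1B1 on chromosome 18 (14593516 to 14752316). All 4 are protein-coding, and their levels sum over all transcripts of a gene, of which RefSeq lists 11 for KHK. No other gene model overlaps KHK or SORD. The last 978 bases of LOC100519643, a protein-coding model, overlap TKFC, and so does the lncRNA LOC106509335, which had 2 counts over all libraries. LOC100519643 had 58 to 119 counts per library and a log2 fold change of 0.01 ± 0.18 (SE; edgeR adjusted p = 0.979). The AKR1B1 model spans 158.801 kb and covers the pseudogene LOC100524410, which had 3 to 10 counts per library. Reads in such overlaps may be lost or assigned to the other model, which makes the counts of TKFC and AKR1B1 uncertain to that extent.

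TKFC was the 1 transcript of the 4 that rose in MIDY liver, and 0 of the 4 fell. It had 86.8, 71.2, 80.9 and 63.1 CPM in MIDY pigs 1 to 4, against 59.4, 49.3, 42.3, 49.4 and 52.3 CPM in WT pigs 1 to 5. Every MIDY pig lay above every WT pig, with the lowest MIDY value close to the highest WT value. The means were 75.5 ± 10.4 CPM in MIDY and 50.5 ± 6.19 CPM in WT (SD, n = 4 and 5), a log2 fold change of 0.58 ± 0.12 (SE; edgeR adjusted p = 0.0436). On the linear scale this is 1.49-fold, with a 95% interval of 1.24 to 1.80. Among all genes tested 1.17% were called, with 115 that rose, or 0.816%, and 50 that fell, or 0.355%; an unadjusted p below 0.05 was seen in 16.1% (edgeR). Group ranges failed to overlap in 6.35% of all genes tested, and in 3.72% with MIDY above. An absolute log2 fold change as large as that of TKFC was seen in 11.8% of the genes, and TKFC ranked 141st by p-value.

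The direction of TKFC did not depend on any single pig, but its call did. Without MIDY replicate 1, 2 or 3 the adjusted p was 0.0895, 0.0957 and 0.123, and without WT replicate 2, 3, 4 or 5 it was 0.0966, 0.0827, 0.0936 and 0.0938 (edgeR). It was called without MIDY replicate 4 or WT replicate 1 (edgeR adjusted p = 0.0273 and 0.0304). The log2 fold change in these 9 fits ran from 0.51 to 0.65.

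**Figure D1:**
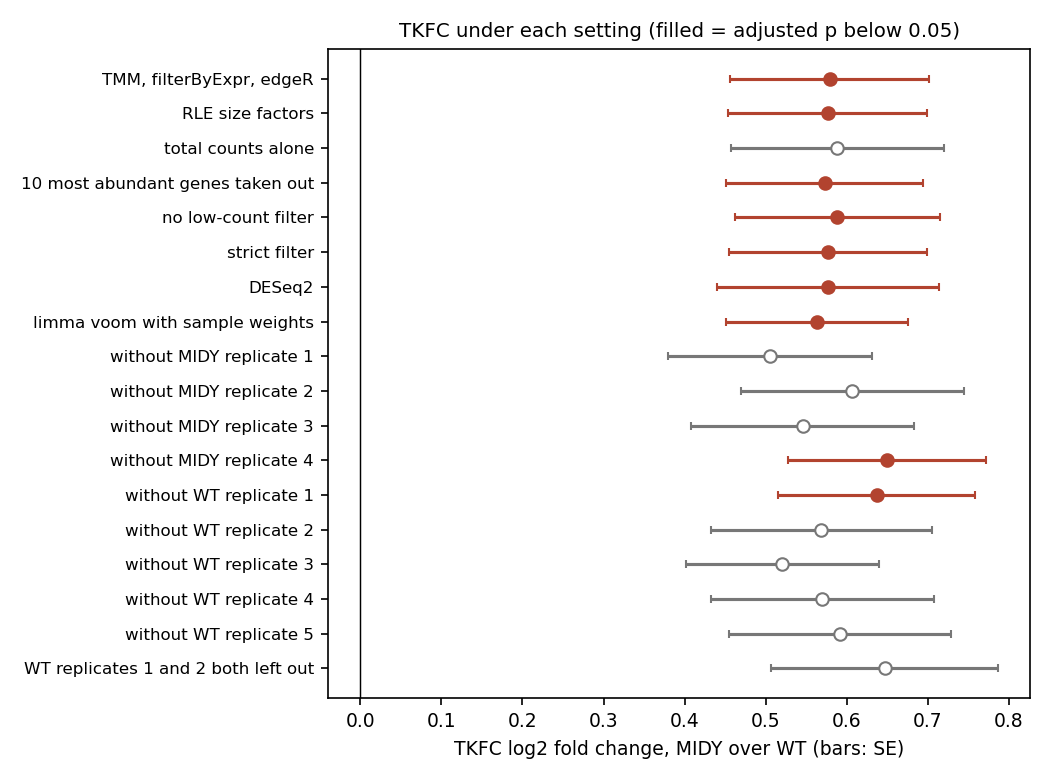
Log2 fold change of TKFC, MIDY over WT, under each of 18 settings, with bars for the SE. The points lie between 0.51 and 0.65 in all of them, and 9 are filled, which marks an adjusted p below 0.05.

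KHK, which opens fructose breakdown, was not called. It had 113, 97.8, 94.9 and 82.5 CPM in MIDY pigs 1 to 4, against 93.4, 95.6, 147, 117 and 110 CPM in WT pigs 1 to 5. The groups overlapped, with WT pig 3 highest and MIDY pig 4 lowest of the 9. KHK averaged 97.2 ± 12.8 CPM in MIDY and 113 ± 21.6 CPM in WT (SD, n = 4 and 5), and its log2 fold change was -0.21 ± 0.14 (SE; edgeR adjusted p = 0.496). The 95% interval of the linear ratio was 0.695 to 1.07. The fitted value was below 0 in all 17 alternatives, from -0.37 to -0.10, and called in none.

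**Figure D2:**
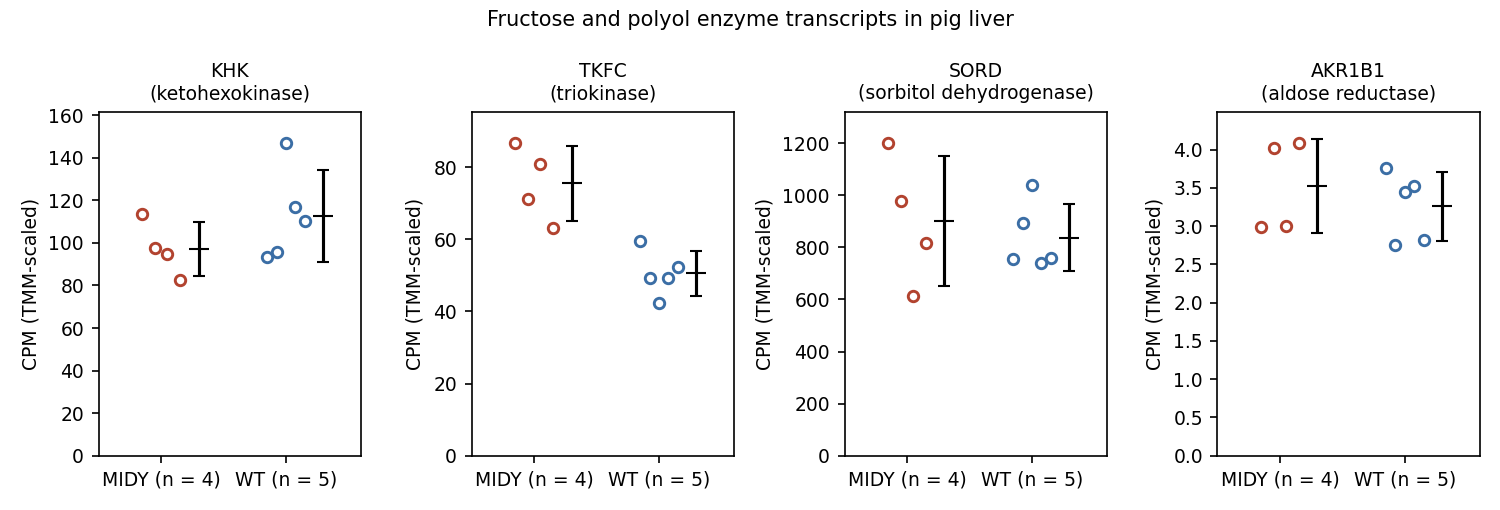
CPM of KHK, TKFC, SORD and AKR1B1 in each library (circles) with the mean and SD of each group (black), each panel on its own axis from 0. The MIDY values of TKFC, 63.1 to 86.8 CPM, lie above the WT values, 42.3 to 59.4 CPM, and the groups overlap for the other 3 genes.

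SORD, the second enzyme of the polyol route, had 1202, 976, 614 and 815 CPM in MIDY pigs 1 to 4. In WT pigs 1 to 5 it had 755, 895, 1038, 739 and 759 CPM. Both the highest and the lowest of the 9 values came from MIDY pigs, so the WT range lay inside the MIDY range. The means were 902 ± 249 CPM in MIDY and 837 ± 129 CPM in WT (SD, n = 4 and 5), with a log2 fold change of 0.11 ± 0.18 (SE; edgeR adjusted p = 0.829). Its linear ratio had a 95% interval of 0.821 to 1.41. Without MIDY replicate 1 the sign of the SORD value turned, to -0.063 (edgeR adjusted p = 0.895).

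AKR1B1, the first enzyme of the polyol route, was a rare transcript in these livers, with 48 to 78 counts per library. It had 2.99, 4.03, 3.003 and 4.09 CPM in MIDY pigs 1 to 4, against 3.75, 2.75, 3.45, 3.53 and 2.82 CPM in WT pigs 1 to 5. The groups overlapped over most of their range. Its means were 3.53 ± 0.61 CPM in MIDY and 3.26 ± 0.45 CPM in WT (SD, n = 4 and 5), and its log2 fold change was 0.12 ± 0.19 (SE; edgeR adjusted p = 0.824; 95% interval of the linear ratio 0.812 to 1.45). Counting error alone gives a coefficient of variation of 13.3% at the mean AKR1B1 count of 56.2. The observed ones were 17.3% in MIDY and 13.8% in WT.

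The spread between pigs of one group is given here without a test between transcripts. The coefficient of variation of SORD was 27.6% in MIDY and 15.4% in WT, where counting error gives 0.834%. For KHK it was 13.1% in MIDY and 19.2% in WT, and for TKFC 13.8% in MIDY and 12.2% in WT. Counting error gives 2.39% for KHK and 3.11% for TKFC. SORD varied more than KHK among MIDY pigs and less than KHK among WT pigs.

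Ratios between transcripts of the same library need no scaling factor. The log2 ratio of KHK to TKFC counts was 0.39, 0.46, 0.23 and 0.39 in MIDY pigs 1 to 4, against 0.65, 0.96, 1.80, 1.24 and 1.08 in WT pigs 1 to 5. All MIDY ratios lay below all WT ratios, and the MIDY pigs lay close together. The means were 0.37 ± 0.10 in MIDY and 1.14 ± 0.42 in WT (SD, n = 4 and 5), a difference of -0.78 (exact two-sided permutation test of the group labels, p = 0.0159, adjusted p = 0.0952 over 6 pairs). This difference did not pass the correction, and 0.00794 is the smallest p that 4 against 5 pigs allow.

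The other 5 ratios did not pass either. TKFC over SORD differed by 0.50 and TKFC over AKR1B1 by 0.47 on the log2 scale, MIDY minus WT (exact permutation adjusted p = 0.238 for both). KHK over SORD differed by -0.28 and KHK over AKR1B1 by -0.31 (exact permutation adjusted p = 0.25 and 0.267). SORD over AKR1B1, the ratio of the 2 polyol steps, was 7.96 ± 0.47 in MIDY and 7.99 ± 0.31 in WT (SD, n = 4 and 5; exact permutation adjusted p = 0.881). That TKFC was called and KHK, SORD and AKR1B1 were not is therefore not shown to be a difference between these transcripts.

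**Figure D3:**
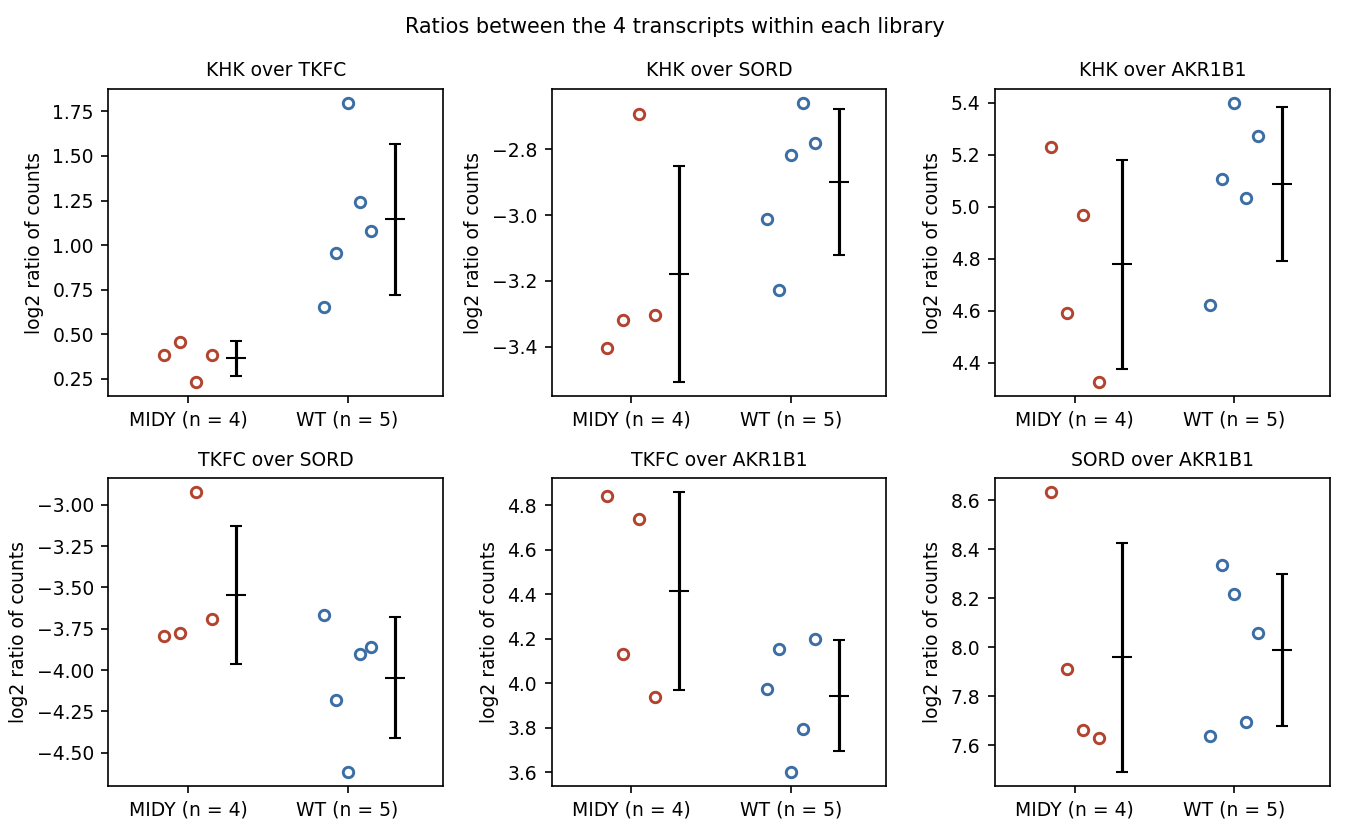
Log2 ratio of the counts of 2 transcripts in each library (circles) for the 6 pairs, with the mean and SD of each group (black); the axes do not start at 0. KHK over TKFC is the 1 pair whose groups do not overlap, with 0.23 to 0.46 in MIDY and 0.65 to 1.80 in WT.

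Among other genes of fructose breakdown and of the triose and pyruvate steps after it, 3 of 15 tested rose, and 0 fell. Over all genes tested, 0.816% rose and 0.355% fell. This list was chosen with earlier results of these data known, so its share set beside that of all genes is no test. At an unadjusted p below 0.05 there were 4 higher and 1 lower, beside 16.1% of all genes tested in either direction (edgeR). The median log2 fold change of the list was 0.04, beside -0.00465 over all genes tested. The 3 that rose belong to routes that share triose phosphates and pyruvate with glycolysis and glucose synthesis. FBP1, the fructose 1,6-bisphosphatase of glucose synthesis, rose by 0.90 ± 0.17, LDHA by 0.75 ± 0.14 and LDHB by 1.34 ± 0.24 (log2 values ± SE, with an edgeR adjusted p = 0.0273 for all 3). LDHA and LDHB are the subunits of lactate dehydrogenase. Leaving out MIDY pig 1, or WT pig 2, turned the 3 called genes into 1, which was LDHA. Leaving out MIDY pig 2 or 3, or WT pig 3 or 5, left 0. With WT pigs 1 and 2 both left out, LDHA was the 1 called. FBP1 and LDHB were each called in 3 of the 9 fits without 1 pig (without MIDY pig 4, WT pig 1 or WT pig 4) and had an edgeR adjusted p of up to 0.0860 and 0.0846 in the rest. LDHA lost its call without MIDY pig 2 or 3 or WT pig 3 or 5 (edgeR adjusted p of up to 0.0892).

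Transporters and alternative routes of fructose breakdown gave no calls. SLC2A2, the sugar carrier GLUT2 of hepatocytes, averaged 351 ± 27.8 CPM in MIDY and 328 ± 17.1 CPM in WT (SD, n = 4 and 5; edgeR adjusted p = 0.668). SLC2A8, the sugar carrier GLUT8, was the fourth of the genes higher at the unadjusted threshold, at 1.92 ± 0.63 CPM in MIDY and 1.001 ± 0.43 CPM in WT (SD, n = 4 and 5; edgeR adjusted p = 0.217). SLC2A5, the fructose carrier GLUT5 of the gut, had 2 counts over all 9 libraries and was not tested. GLYCTK, the glycerate kinase of the route that takes glyceraldehyde through glycerate, had a log2 fold change of -0.11 ± 0.12 (SE; edgeR adjusted p = 0.701). TPI1, which interconverts the triose phosphates, had -0.03 ± 0.13 (SE; edgeR adjusted p = 0.934). HK1, a hexokinase that can phosphorylate fructose at carbon 6, had -0.41 ± 0.14 (SE; edgeR adjusted p = 0.178).

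**Figure D4:**
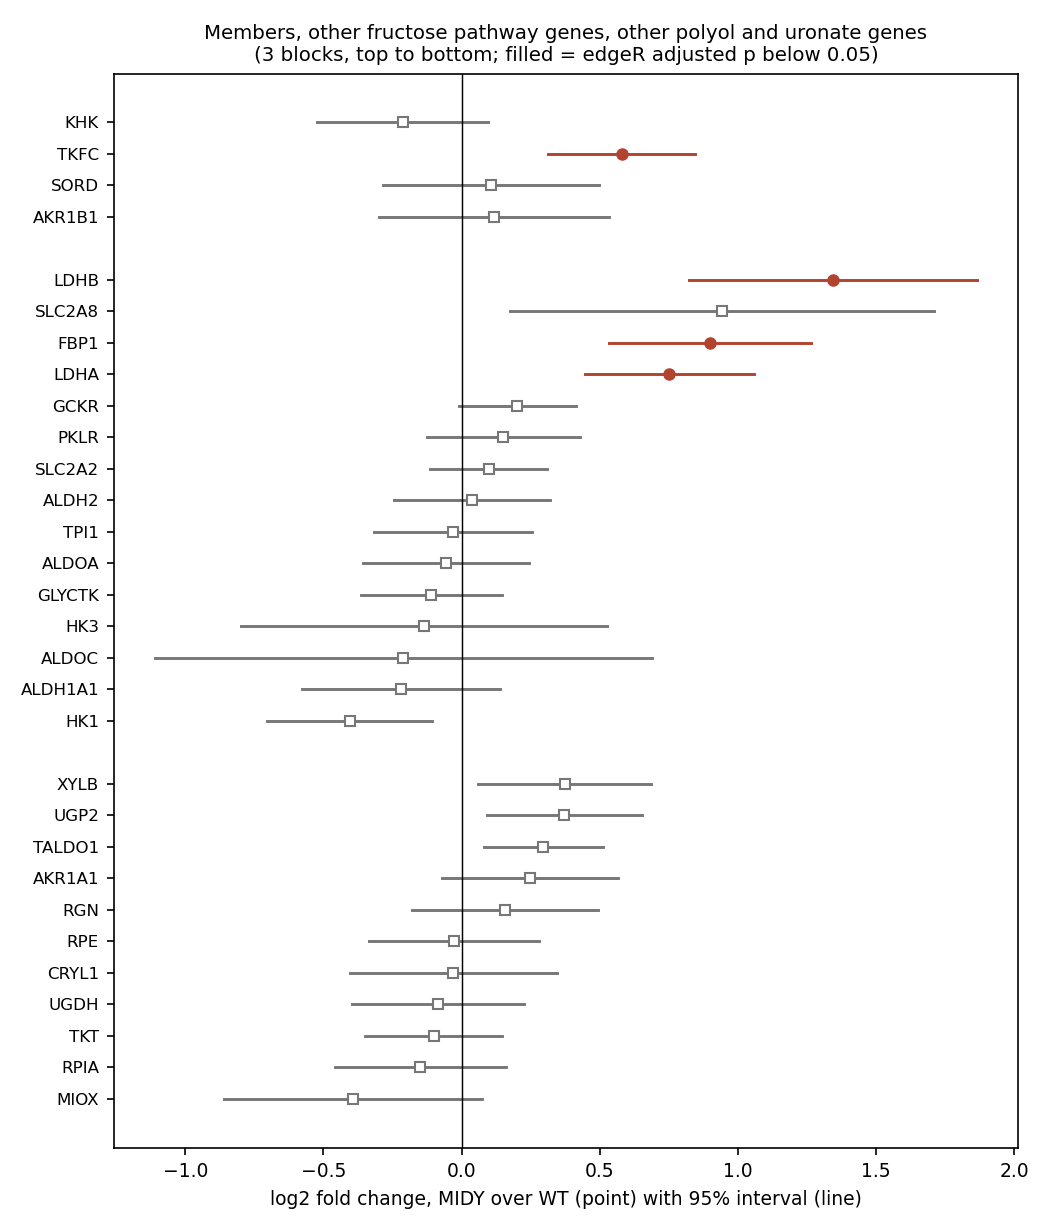
Log2 fold change, MIDY over WT, with its 95% interval for KHK, TKFC, SORD and AKR1B1 (top), 15 other genes of fructose and triose metabolism (middle) and 11 other genes of polyol and uronate metabolism (bottom); filled points passed an edgeR adjusted p below 0.05. TKFC at 0.58, FBP1 at 0.90, LDHA at 0.75 and LDHB at 1.34 are the filled ones.

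Of 11 other genes of polyol, uronate and pentose interconversion, 0 were called by edgeR, DESeq2 or limma voom. At an unadjusted edgeR p below 0.05, 3 were higher and 0 lower, beside 16.1% of all genes tested in either direction. The median log2 fold change of the list was -0.03. XYLB, which phosphorylates the xylulose made from xylitol, averaged 93.2 ± 20.8 CPM in MIDY and 72.0 ± 5.86 CPM in WT, and UGP2, which makes UDP-glucose, 463 ± 60.6 CPM in MIDY and 358 ± 47.0 CPM in WT (SD, n = 4 and 5; edgeR adjusted p = 0.231 and 0.185). TALDO1, the transaldolase of the pentose phosphate route, had a log2 fold change of 0.29 ± 0.10 (SE; edgeR adjusted p = 0.174). AKR1A1, the aldehyde reductase related to AKR1B1, averaged 75.2 ± 14.7 CPM in MIDY and 63.3 ± 9.62 CPM in WT (SD, n = 4 and 5; edgeR adjusted p = 0.436). MIOX, which opens the ring of myo-inositol, had a log2 fold change of -0.39 ± 0.21 (SE; edgeR adjusted p = 0.400).

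In human and rodent cells AKR1B1 is a target of NFAT5, the transcription factor that answers osmotic stress. NFAT5 itself averaged 112.9 ± 16.2 CPM in MIDY and 113.0 ± 8.71 CPM in WT (SD, n = 4 and 5; edgeR adjusted p = 0.999). SLC5A3, a myo-inositol carrier and another NFAT5 target, had a log2 fold change of 0.07 ± 0.17 (SE; edgeR adjusted p = 0.876). Of 14 tested genes of osmotic response and osmolyte handling 0 were called by edgeR, while DESeq2 called 1 and limma voom 0. At an unadjusted edgeR p below 0.05 there were 1 higher and 2 lower, beside 16.1% of all genes tested in either direction. The one higher was IMPA1, an inositol monophosphatase, at 67.0 ± 14.5 CPM in MIDY and 38.6 ± 15.3 CPM in WT (SD, n = 4 and 5; edgeR adjusted p = 0.161). The lower ones were SGK1, a kinase induced by salt and hormones, and AQP1, a water channel, with log2 fold changes of -1.08 ± 0.42 and -0.64 ± 0.20 (SE; edgeR adjusted p = 0.251 and 0.142).

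Dietary sugars act on liver transcription in part through ChREBP, the carbohydrate response factor encoded by MLXIPL. MLXIPL averaged 51.2 ± 13.2 CPM in MIDY and 57.6 ± 10.2 CPM in WT (SD, n = 4 and 5; edgeR adjusted p = 0.686). Of 17 tested genes of ChREBP and the carbohydrate response, 1 rose and 0 fell, with a median log2 fold change of -0.01. The shares over all genes tested were 0.816% and 0.355%. At an unadjusted p below 0.05 there were 2 higher and 1 lower, beside 16.1% of all genes tested in either direction (edgeR). The gene of this list that rose was ELOVL6, a fatty acid elongase, with a log2 fold change of 1.02 ± 0.13 (SE; edgeR adjusted p = 0.00451). Liver pyruvate kinase, PKLR, and TXNIP, both induced by carbohydrate through ChREBP, had 0.15 ± 0.13 and 0.21 ± 0.19 (SE; edgeR adjusted p = 0.606 and 0.641). GPD1, the cytosolic glycerol 3-phosphate dehydrogenase, was the other higher one at the unadjusted threshold, with a log2 fold change of 0.62 ± 0.23 (SE; edgeR adjusted p = 0.211). The lower one was PNPLA3, a lipase gene induced by carbohydrate feeding in mice, with 1.54 ± 0.89 CPM in MIDY and 7.76 ± 7.87 CPM in WT (SD, n = 4 and 5; edgeR adjusted p = 0.175).

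Glyceraldehyde can also be oxidised by aldehyde dehydrogenases, and sugars that attach to proteins are removed by fructosamine kinases. Of 15 tested genes of aldehyde and glycation handling 0 were called by edgeR, while DESeq2 called 1 and limma voom 0. At an unadjusted edgeR p below 0.05 there were 1 higher and 0 lower, beside 16.1% of all genes tested in either direction. The one higher was ALDH7A1, an aldehyde dehydrogenase of lysine breakdown, at 611 ± 114 CPM in MIDY and 411 ± 64.9 CPM in WT (SD, n = 4 and 5; edgeR adjusted p = 0.0919). FN3K, fructosamine 3-kinase, averaged 11.3 ± 2.07 CPM in MIDY and 13.5 ± 1.69 CPM in WT (SD, n = 4 and 5; edgeR adjusted p = 0.415). GLO1, the glyoxalase that clears methylglyoxal, averaged 185 ± 9.51 CPM in MIDY and 179 ± 16.4 CPM in WT (SD, n = 4 and 5; edgeR adjusted p = 0.869).

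Whether the 4 transcripts varied together between pigs of one group was asked on log2 CPM centred on the group means. Over the 9 pigs and 6 pairs, Pearson's r ran from -0.41 (TKFC and AKR1B1) to 0.54 (KHK and SORD), and Spearman's rho from -0.37 to 0.50. No pair passed the test (exact permutation of the pigs within their groups, lowest adjusted p = 0.698 for r and 0.664 for rho). Some r values changed when the 2 pigs farthest from the median of the first gene were left out. The r of KHK and AKR1B1 stayed at -0.13. That of KHK and SORD was -0.18 without MIDY pig 1 and WT pig 3. Without MIDY pig 1 and WT pig 1, that of TKFC and SORD was -0.66, where it had been -0.16, and that of TKFC and AKR1B1 was -0.73.

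The genes most like each member in this within-group pattern were picked as the highest of 9209 correlations (9210 for AKR1B1) over 9 pigs, so their r describes the choice and is no test. KHK was closest to RELN (r = 0.97), LSM4 (0.97) and RPL5 (0.96), and TKFC to RANBP6 (0.98), REXO1 (0.97) and DHX36 (0.96). SORD was closest to CTR9 (r = 0.98), PTGES3 (0.98) and PSMA6 (0.97), and AKR1B1 to ZUFSP (0.95), SPICE1 (0.94) and CBFA2T2 (0.92). None of these 12 genes was called between the groups (edgeR adjusted p of 0.360 or more).

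In bulk liver, fewer cells of a type and less RNA per cell cannot be told apart. The 10 hepatocyte transcripts had 0 calls by edgeR and 0 by limma voom, with 1 higher at an unadjusted p below 0.05 and 1 called by DESeq2, and a median log2 fold change of -0.05. Their summed level, most of which was ALB, was 158627 to 189909 CPM in MIDY and 134085 to 190070 CPM in WT. For markers of other liver cells most fitted values lay below 0: 11 of 14 stellate, 10 of 14 endothelial, 10 of 13 biliary and 12 of 14 macrophage genes, with median log2 fold changes of -0.58, -0.12, -0.51 and -0.26. At an unadjusted p below 0.05 there were 0 higher and 8 lower stellate genes and 1 higher and 4 lower endothelial genes (edgeR). Over all genes tested, 16.1% passed that threshold in either direction. Among the stellate genes COL1A2, a collagen chain, fell to 34.3 ± 8.03 CPM in MIDY, against 60.1 ± 10.3 CPM in WT (SD, n = 4 and 5; edgeR adjusted p = 0.0434). COL1A2 kept its call in the fits without MIDY pig 4 or WT pig 1 and lost it in the other 7 of 9 without 1 pig (edgeR adjusted p of up to 0.106). The summed stellate level was 517 to 642 CPM in MIDY and 607 to 910 CPM in WT.

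Of 14 endothelial genes, EMCN, an endothelial sialomucin, fell, with a log2 fold change of -0.74 ± 0.14 (SE; edgeR adjusted p = 0.0273). It was called without MIDY pig 4, WT pig 1 or WT pig 3 and in none of the other 6 fits without 1 pig (edgeR adjusted p of up to 0.0737). The summed endothelial level was 1124 to 1260 CPM in MIDY and 1023 to 1245 CPM in WT. STAB2 was the 1 endothelial gene higher at an unadjusted edgeR p below 0.05, beside 4 lower. It averaged 262 ± 36.8 CPM in MIDY and 200 ± 20.2 CPM in WT (SD, n = 4 and 5, edgeR adjusted p = 0.144). Of 13 tested biliary genes and 14 macrophage genes 0 were called by edgeR. Each list had 1 higher and 3 lower at an unadjusted edgeR p below 0.05, beside 16.1% of all genes tested in either direction. The summed biliary level was 236 to 499 CPM in MIDY and 263 to 469 CPM in WT. ONECUT1 alone averaged 308 ± 107 CPM in MIDY and 300 ± 64.3 CPM in WT (SD, n = 4 and 5), most of that sum. The summed macrophage level was 1105 to 1374 CPM in MIDY and 1161 to 1673 CPM in WT. For the endothelial list DESeq2 called 2 genes lower, and for the stellate list 4. DESeq2 called 0 biliary genes and 1 macrophage gene, which was higher, and limma voom called 0 of each. MARCO was the 1 macrophage gene higher at the unadjusted edgeR threshold, with a log2 fold change of 0.98 ± 0.29 (SE, edgeR adjusted p = 0.138). No marker of these lists was at 0 in all libraries. The part of these cells in the levels of TKFC, KHK, SORD and AKR1B1 was not tested.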

How the data were processed

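Per the labels' protocols, Trizol was used for RNA isolation and the Encore Complete system of Nugen for libraries from ribosome-depleted RNA. The submitters' processing notes name STAR, HTSeq, DESeq2 and the build Sscrofa11.1; for the strand setting, versions and annotation release, none was given in the sources used here. What the authors deposited are raw read counts by gene symbol, 1 column per library; 0 columns were left unused and 0 entries name no gene. All 29837 symbols matched RefSeq's gene table.

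Groups follow the genotype label. Counts were tested in R 4.3.3 with edgeR 4.0.16 (filterByExpr, TMM, robust quasi-likelihood fit over 14100 genes, Benjamini-Hochberg adjustment over all of them, call below 0.05). SEs were derived from the F statistic (log2 fold change over its square root). The labels give each library as a separate sample and name no litter or batch. The p-values of group differences thus set the difference against the spread between these samples. In edgeR that spread is moderated across genes. Ratios used a prior count of 0.5, and log2 CPM for correlations a prior count of 2. Intervals of ratios are 95%. The fit was checked on simulated counts. Alternatives were other scalings and filters, DESeq2 1.42.0, limma 3.58.1 voom and leaving libraries out. The members, gene lists and tests were chosen with earlier results of these data known. Named are the 4 members, called list genes, up to 4 list genes of smallest p, the 3 genes most like each member (mean of at least 5 CPM) and overlapping models; GLYCTK, SLC2A2, SLC2A5, SLC2A8, TPI1, AKR1A1, NFAT5, SLC5A3, MLXIPL, PKLR, TXNIP, FN3K, GLO1 and ALB were added for their known roles after their values were seen. ONECUT1 was added for its share of the biliary sum, also after its values were seen. AKR1B10, DCXR, HSPA1B and AKR1C4 of the lists were not found by symbol among the deposited counts, so they were not tested. Some genes of these pathways are not reported here.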

Additional observations from a re-analysis of the deposited data

Results flagged for a closer look

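In 98 groups of values checked (the 4 transcripts, their ratios and the named list genes), 4 had 1 library far from the rest of its group by Dixon's criterion, where chance flags about 1 in 20. The log2 ratio of KHK to SORD in MIDY pig 3 was -2.69, against -3.40 to -3.30 in the other MIDY pigs. The log2 ratio of TKFC to SORD in the same pig was -2.92, against -3.79 to -3.69. The SORD level of MIDY pig 3, which both ratios share, was the lowest of the 9 at 614 CPM. In WT pig 1, IMPA1 stood at 65.1 CPM, against 26.8 to 36.1 CPM in the other WT pigs. PNPLA3 stood at 21.6 CPM in WT pig 1, against 1.95 to 5.25 CPM in the other WT pigs.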

How the results depend on the processing

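No paired analysis was possible because the labels give the groups no shared replicate numbers. TKFC kept its direction in all 17 alternatives and was called in 8. It was not called with total counts alone (0.59, edgeR adjusted p = 0.0536) or without WT replicates 1 and 2 together (0.65, adjusted p = 0.0748), an alternative chosen after seeing the data. Leaving out 1 library gave 0.51 to 0.65 for TKFC, with fewer samples in each such fit. KHK and AKR1B1 kept direction and stayed uncalled in all 17, and SORD ran from -0.063 to 0.25 over the libraries left out. No ratio passed with a prior count of 2. No ratio passed with pigs left out either. The lowest adjusted p there was 0.0857 (exact permutation), for KHK over TKFC and for TKFC over SORD. Few splits remain in these fits, so not passing there says little. If only 1 ratio reached the smallest p, its adjusted p would be 0.107 without 1 MIDY pig. It would be 0.171 without 1 WT pig or without WT pigs 1 and 2. Where several ratios reach the smallest p, the adjusted p can be lower. In these fits SORD over AKR1B1 ran from -0.25 to 0.080. All genes called numbered 165, against 639 by DESeq2, 66 without WT replicates 1 and 2, and 38 to 259 without 1 library. DESeq2 called 1 osmotic, 2 carbohydrate response, 1 aldehyde, 1 hepatocyte, 4 stellate, 2 endothelial and 1 macrophage gene. Without WT replicates 1 and 2 the calls were 1 fructose pathway, 1 osmotic and 0 stellate genes, and 1 endothelial gene higher in place of EMCN (lower, edgeR adjusted p = 0.0511), and with total counts alone 0 stellate genes. Without 1 library the calls ran from 0 to 3 for the fructose pathway, 0 to 2 for the stellate and endothelial lists, and 0 to 1 for the polyol, osmotic, biliary and macrophage lists. The cause of these changes was not tested. Depth limits AKR1B1, at 48 to 78 counts per library.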
